A study of Gallus gallus with 48 samples.

Results

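Cone opsins are the light-sensing pigments of cone photoreceptors, and the genes described here are the 4 cone opsins of the chicken: OPN1LW, the red-sensitive pigment also called iodopsin, OPN1MSW, the green-sensitive pigment, OPN2SW, the blue-sensitive pigment, and OPN1SW, the violet-sensitive pigment. The genes were chosen with earlier results of these data known. All probe sets to which the platform annotation gives 1 of these symbols were taken, whatever their values. This found 1 probe set for OPN1LW and 1 for OPN2SW, so 2 of the 4 genes were analysed, among 13009 genes with a probe set of 1 symbol. OPN1MSW and OPN1SW had no probe set under their symbols and were not analysed here. A pigment of rods was not among the 4 genes, so the values below concern cone pigments alone.

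Each opsin is a receptor that holds a derivative of vitamin A. When light changes the shape of that chromophore, the opsin activates the G protein transducin, transducin activates a phosphodiesterase, and the fall in cyclic GMP closes the cation channels of the outer segment. In the chick retina each single cone carries 1 pigment and an oil droplet. Both members of the double cones, which take part in motion and luminance vision, carry the red-sensitive pigment. The messenger RNA of that pigment is also known to follow a daily rhythm in chick retina.

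The arrays came from White Leghorn chicks that wore a spectacle lens on 1 eye at 1 week of age, with the uncovered fellow eye as the control. With a negative lens the image falls behind the retina, with a positive lens in front of it. The groups, each of 6 arrays from 6 birds, were lens eyes after 3 days of a -15 diopter (D) lens and the control eyes of those birds, lens eyes after 6 hours of a -15 D lens and their control eyes, and the same 4 groups for a +15 D lens. All birds were kept in 12 hours of light per day, and each sample pooled the retina with the pigment epithelium behind it (RPE), so the level of a gene is an average over all cells of the sample. Each of the 4 conditions used its own 6 birds, so 3 days and 6 hours were compared between different birds, while lens and control eye were compared within a bird. Length of lens wear, age at collection and set of birds cannot be told apart, and the sources used here do not give the hour at which eyes were taken.

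Values are log2 signals, on which a difference of 1 is a doubling, and each probe set has its own response, so the level of one opsin cannot be set against that of the other. Both probe sets were above the background of the arrays in every eye. Background was taken as 4.50 log2, the 95th percentile of 541 probe sets for viral sequences, and the lowest eye had 10.77 for OPN1LW and 10.23 for OPN2SW. Of the other cell markers, the mean level of 17 genes of other retinal neurons had a group median between 10.89 and 10.96, and that of 7 Muller glia genes lay between 11.55 and 11.65. The level of 15 RPE and pigment genes, of which 14 were above background, varied more, with single eyes between 8.40 and 10.71. Genes of the crystalline lens were high in single control eyes: the mean of 13 lens and anterior segment genes, 11 of them above background, reached 12.02 in a control eye and at most 6.82 in a lens eye.

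The red-sensitive pigment was lower in eyes collected at 3 days than in eyes collected at 6 hours, in both sets of birds and in both eyes, and the blue-sensitive pigment was not distinguishable between the times. Over all 24 eyes at each time, OPN1LW had a lowest value of 10.77, a median of 11.60 and a highest of 12.13 at 3 days, against 11.75, 12.83 and 13.46 at 6 hours. OPN2SW had 10.80, 11.13 and 11.52 at 3 days, against 10.23, 11.12 and 11.78 at 6 hours.

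In control eyes of the -15 D birds, OPN1LW ran between 11.09 and 11.65 with a median of 11.48 at 3 days, and between 12.39 and 12.96 with a median of 12.76 at 6 hours. All 6 control eyes at 3 days were below all 6 at 6 hours. The share of all probe sets with groups so apart was not counted, here or for later groups without overlap. The means were 11.41 ± 0.23 at 3 days and 12.72 ± 0.24 at 6 hours (SD, n = 6 each), a log2 difference of -1.31 with a standard error of 0.20 and a 95% interval of -1.73 to -0.89, or a 2.49-fold lower signal. It passed limma's test across all 38382 probe sets with an adjusted p of 0.000754, in a comparison that called 1.42% of them, and an exact two-sided permutation of the 12 eyes gave 0.00216, the smallest p that 6 against 6 allows. In absolute size, 45 of the 38382 probe sets differed by more.

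Control eyes of the +15 D birds gave OPN1LW values between 10.77 and 11.93 with a median of 11.67 at 3 days, and between 11.75 and 13.33 with a median of 12.74 at 6 hours. Here the groups overlapped, because 1 control eye at 6 hours, that of replicate 1, stood at 11.75. The means were 11.59 ± 0.42 at 3 days and 12.68 ± 0.52 at 6 hours (SD, n = 6 each), a log2 difference of -1.09 with a 95% interval of -1.51 to -0.67, or 2.12-fold lower. The adjusted p from limma was 0.0107 where 0.367% of probe sets were called, and the exact permutation p was 0.00649. With the spread taken from these 12 arrays alone the difference was the same and the adjusted p was 0.215, so this call rests on the spread shared by all 24 control eyes.

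That low eye at 6 hours, from a +15 D bird, was also the lowest of all 48 for OPN2SW, at 10.23. It had the highest ratio of 3' to 5' signal of actin, a sign of RNA breakdown, at 4.41 log2, where the median of its group was 2.97. At 3 days the lowest control eye of the +15 D birds, again called replicate 1 but from another bird, had 10.77 for OPN1LW and 10.80 for OPN2SW. Its actin ratio was 3.46 log2, where its group had a median of 3.23 and a highest of 3.79. Without these 2 birds the difference in control eyes of the +15 D birds was -1.11 with limma's adjusted p at 0.000180, a setting chosen after their values were seen.

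The sets of birds averaged, OPN1LW was lower at 3 days by 1.20 on the log2 scale in control eyes (standard error 0.14, 95% interval -1.50 to -0.90, limma's adjusted p 1.19e-05), which is 2.30-fold. Of 38382 probe sets, 2.06% were called in this average, 346 of them higher and 445 lower at 3 days, and 11 had a larger fall than OPN1LW. Whether the -15 D birds and the +15 D birds differed in this was tested directly: the difference of the differences was -0.23 with a 95% interval of -0.82 to 0.37 and limma's adjusted p was 0.935.

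**Figure D1:**
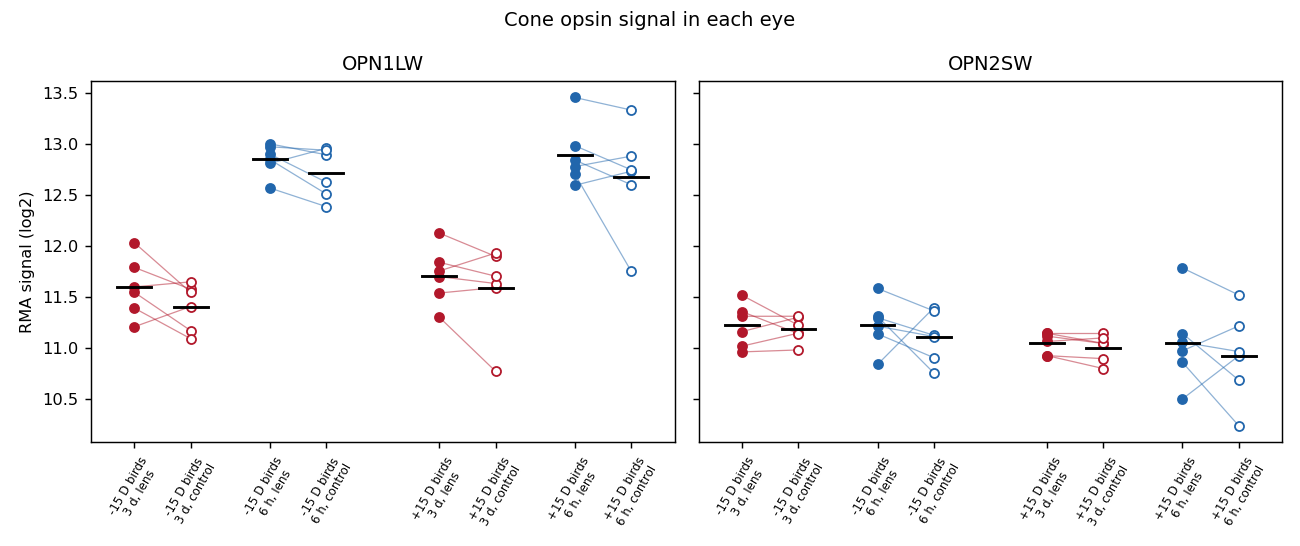
Log2 signal of OPN1LW (left) and OPN2SW (right) in each of 48 eyes, by bird set, time and eye. Filled points are lens eyes, open points control eyes, lines join the eyes of a bird and black bars are group means of 6 eyes. OPN1LW means lie between 11.41 and 11.71 in the groups at 3 days and between 12.68 and 12.89 in the groups at 6 hours, while all OPN2SW means lie between 10.92 and 11.23.

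The lens eyes of the same birds repeated the pattern, although, coming from the same animals, they are not independent of the control eyes. In -15 D birds the lens eyes had OPN1LW values between 11.21 and 12.03 with a median of 11.57 at 3 days, and between 12.57 and 13.00 with a median of 12.88 at 6 hours. In +15 D birds they had values between 11.30 and 12.13 with a median of 11.73 at 3 days, and between 12.60 and 13.46 with a median of 12.81 at 6 hours. Neither pair of groups overlapped.

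In lens eyes of the -15 D birds the OPN1LW means were 11.59 ± 0.29 at 3 days and 12.85 ± 0.16 at 6 hours (SD, n = 6 each). The log2 difference was -1.26 (standard error 0.15, 95% interval -1.56 to -0.95), or 2.39-fold lower, with limma's adjusted p at 1.96e-05 in a comparison that called 8.85% of all probe sets. That share was not stable: 3396 probe sets were called, against 182 with the actin 3' to 5' ratio, a measure of RNA breakdown, as a covariate, where OPN1LW was still called. In lens eyes of the +15 D birds the means were 11.71 ± 0.28 at 3 days and 12.89 ± 0.31 at 6 hours (SD, n = 6 each). The log2 difference was -1.18 (standard error 0.15, 95% interval -1.49 to -0.88), or 2.27-fold lower, with limma's adjusted p at 9.16e-05 where 0.477% were called. Exact permutation gave 0.00216 in each set. Averaged over the sets, OPN1LW in lens eyes was lower by 1.22 on the log2 scale (95% interval -1.43 to -1.01, 2.33-fold, limma's adjusted p 7.08e-08), in an average that called 7.78% of probe sets, or 2988 of them against 356 with the actin covariate, and in which 7 had a larger fall. The difference between the sets was -0.072 with a 95% interval of -0.50 to 0.36 and limma's adjusted p was 0.948.

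Ordered by mean, the OPN1LW groups at 3 days ran 11.41 in control eyes of -15 D birds, 11.59 in control eyes of +15 D birds and in lens eyes of -15 D birds, and 11.71 in lens eyes of +15 D birds. The groups at 6 hours followed with 12.68 in control eyes of +15 D birds, 12.72 in control eyes of -15 D birds, 12.85 in lens eyes of -15 D birds and 12.89 in lens eyes of +15 D birds. Within each time, neighbours in this order differed by less than the larger of their SDs. The step between the highest group at 3 days and the lowest at 6 hours was larger than the SD of either.

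The blue-sensitive pigment gave a different picture in the same eyes. In control eyes of -15 D birds, OPN2SW ran between 10.98 and 11.31 with a median of 11.18 at 3 days, and between 10.75 and 11.40 with a median of 11.12 at 6 hours. In control eyes of +15 D birds it ran between 10.80 and 11.15 with a median of 11.04 at 3 days, and between 10.23 and 11.52 with a median of 10.94 at 6 hours. The values at 3 days lay inside the range at 6 hours in both sets.

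The log2 difference of OPN2SW between 3 days and 6 hours was 0.075 in control eyes of -15 D birds (95% interval -0.23 to 0.38, limma's adjusted p 0.899) and 0.081 in those of +15 D birds (95% interval -0.23 to 0.39, limma's adjusted p 0.965). Averaged over the sets it was 0.078, with a 95% interval of -0.14 to 0.30 and limma's adjusted p at 0.819. The interval of this average does not reach the size of the OPN1LW difference, which was -1.20. In lens eyes the differences were -0.0093 in -15 D birds (95% interval -0.32 to 0.30) and 0.00092 in +15 D birds (95% interval -0.31 to 0.31), with limma's adjusted p at 0.979 and above.

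In lens eyes OPN2SW ran between 10.96 and 11.52 with a median of 11.24 at 3 days, against 10.84 to 11.58 with a median of 11.26 at 6 hours, in -15 D birds. In +15 D birds it ran between 10.92 and 11.15 with a median of 11.09 at 3 days, against 10.50 to 11.78 with a median of 11.01 at 6 hours. The groups overlapped throughout. Among the 8 groups the OPN2SW means stood between 10.92 ± 0.44 in control eyes of +15 D birds at 6 hours and 11.23 ± 0.24 in lens eyes of -15 D birds at 6 hours (SD, n = 6 each), and neighbours in the order differed by less than their SDs.

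How far the pigments differed from each other was described by the log2 difference OPN1LW minus OPN2SW within an eye, a quantity chosen after the values were seen. Its size depends on the probe sets, so only its differences between groups were read. In control eyes of -15 D birds it was 0.22 ± 0.16 at 3 days and 1.61 ± 0.12 at 6 hours, and in control eyes of +15 D birds 0.58 ± 0.33 at 3 days and 1.75 ± 0.14 at 6 hours (SD, n = 6 each). Lens eyes of -15 D birds had 0.37 ± 0.18 at 3 days and 1.62 ± 0.21 at 6 hours, and lens eyes of +15 D birds had 0.66 ± 0.21 at 3 days and 1.84 ± 0.16 at 6 hours (SD, n = 6 each). A p for this quantity restates the differences that led to its choice and is not separate support. The 32 exact tests also hold OPN1LW itself and other values built from it, which makes the adjusted p smaller. In all 4 comparisons the groups did not overlap, and the exact two-sided permutation p was 0.00216, or 0.0063 after Benjamini-Hochberg adjustment over 32 exact tests.

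This includes the +15 D control eyes, where OPN1LW alone overlapped: the eye of replicate 1 at 6 hours, low for both pigments, had a difference of 1.52, the lowest of its group, whose highest was 1.92, but above the range of -0.027 to 0.85 at 3 days. Fewer photoreceptors in a sample and less RNA of a gene in each photoreceptor cannot be told apart in values for whole tissue, for either pigment.

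**Figure D2:**
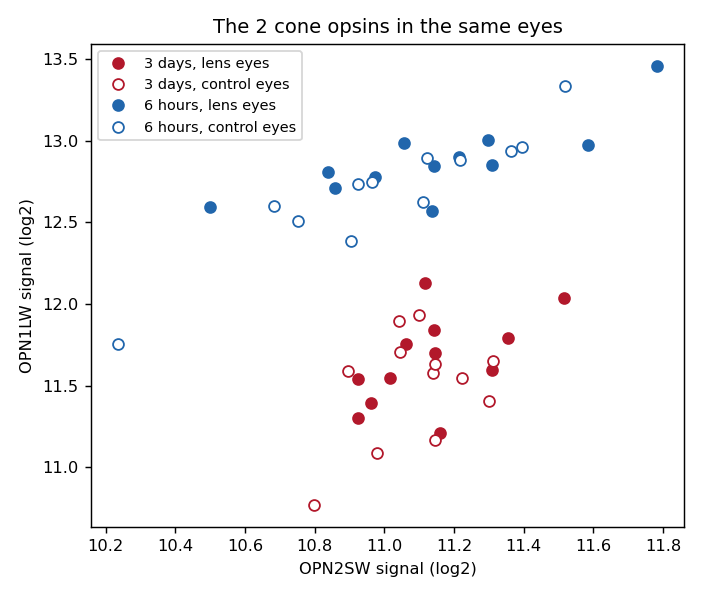
Log2 signal of OPN1LW (vertical axis) against OPN2SW (horizontal axis) in each of 48 eyes, in red at 3 days and blue at 6 hours, filled for lens eyes and open for control eyes. The eyes form separate bands by time, each sloping upward, with the medians of OPN2SW at 11.13 and 11.12 and those of OPN1LW at 11.60 and 12.83 at 3 days and 6 hours.

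Within a time the pigments varied together from bird to bird. Over 24 birds, with the mean of the eyes of each bird taken as its deviation from the mean of its set, OPN2SW and OPN1LW had a Pearson correlation of 0.826 and a Spearman correlation of 0.830. The permutation p was 1e-05 for both, the smallest that 100000 permutations within sets can give, and 5e-05 after adjustment over the 5 relations computed. Without the 2 birds farthest from the median the Pearson correlation was 0.822. The share of all genes with such a correlation was not counted. On deviations from group means over 48 eyes, OPN2SW had 0.791 with OPN1LW. With the 5 genes most like it over all eyes it had 0.838 to 0.903. The pigments also had similar Pearson correlations with the actin 3' to 5' ratio, -0.556 for OPN1LW and -0.553 for OPN2SW. The part of RNA quality in the relation between the pigments was not tested. OPN1LW in the lens eye and in the control eye of a bird had a Pearson correlation of 0.660 (permutation p 0.00294, adjusted 0.00735) and a Spearman correlation of 0.670 (adjusted permutation p 0.00228), and 0.649 without the 2 farthest birds. For OPN2SW the Pearson correlation of the eyes was 0.427 (adjusted permutation p 0.166) and the Spearman correlation 0.342 (adjusted permutation p 0.133), and the Pearson correlation was 0.077 without the 2 farthest birds, so no relation between the eyes was established for that gene.

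The level of OPN1LW within a set was also related to the actin 3' to 5' ratio. Its relation to other measures of RNA quality was not computed. OPN1LW and the actin 3' to 5' ratio had a Pearson correlation of -0.556 over the 24 birds (permutation p 0.0144, adjusted 0.0241), a Spearman correlation of -0.524 (adjusted permutation p 0.0202), and a Pearson correlation of -0.44 without the 2 farthest birds. For OPN2SW the relation did not pass after adjustment, with a Pearson correlation of -0.553 (adjusted permutation p 0.0794), a Spearman correlation of -0.439 (adjusted permutation p 0.0523) and a Pearson correlation of -0.435 without 2 birds. The median ratio in control eyes was 3.21 at 3 days against 3.12 at 6 hours in -15 D birds, and 3.23 at 3 days against 2.97 at 6 hours in +15 D birds. In lens eyes it was 3.59 at 3 days against 3.06 at 6 hours in -15 D birds, and 3.28 at 3 days against 3.00 at 6 hours in +15 D birds. With the ratio of each array as a covariate the averaged OPN1LW difference was -1.12 in control eyes (limma's adjusted p 5.79e-07) and -1.11 in lens eyes (limma's adjusted p 2.77e-05).

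Of the rest of the cone light pathway, more genes were called higher at 3 days than lower. Of 18 measured cone phototransduction genes in a list of 21, control eyes averaged over the sets had 7 higher and 1 lower at 3 days than at 6 hours, while 10 did not pass. Over all 27 probe sets of these genes, 8 were called higher and 2 lower. The list's median log2 difference was 0.28, where all 38382 probe sets had a median of 0.0024 and 2.06% called. In control eyes of -15 D birds alone, 7 of the 18 were higher and 1 lower, where 1.42% of all probe sets were called. In those of +15 D birds 4 were higher and 0 lower, where 0.367% were. The 4 were CNGA3, GRK7, RGS9BP and GUCA1A, and with only the arrays compared 1 cone gene was called there. OPN1LW minus the mean of the 18 cone genes in the same eye was a quantity chosen after the values were seen. It differed between 3 days and 6 hours by -1.57 in control eyes of -15 D birds and by -1.29 in those of +15 D birds, without overlap (exact permutation p 0.00216 in each). As OPN1LW was lower and the list's median higher in these eyes, this restates those differences and is not separate support.

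Some genes of the steps that follow the pigment were among those that rose. GRK7, the kinase that phosphorylates activated cone opsin, had a lowest value of 10.39, a median of 10.77 and a highest of 10.90 in 12 control eyes at 3 days, against 9.48, 9.75 and 10.38 at 6 hours. All 12 eyes at 3 days were above all 12 at 6 hours, and the log2 difference was 0.93 (standard error 0.084, limma's adjusted p 1.69e-07). CNGA3, the main subunit of the cone channel, had 9.72, 10.14 and 10.44 in control eyes at 3 days, against 9.12, 9.27 and 9.49 at 6 hours, again without overlap. Its difference was 0.81 (standard error 0.066, limma's adjusted p 2.39e-08).

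PDE6C, the catalytic subunit of the cone phosphodiesterase, had 11.90, 12.16 and 12.48 in control eyes at 3 days, against 11.09, 11.59 and 11.77 at 6 hours, a rise of 0.66. The inhibitory subunit PDE6H rose by 0.50, the guanylate cyclase activator GUCA1A by 0.46, the cone calcium exchanger SLC24A2 by 0.29 and RGS9BP, which anchors the protein that shuts transducin off, by 0.26. The largest adjusted p among these by limma was 0.0105, for PDE6H. The 1 that fell was PPEF2, a calcium-regulated phosphatase of photoreceptors, by 0.64 (limma's adjusted p 0.00256). ARR3, the cone arrestin, had a difference of 0.51 and GNAT2, the cone transducin, one of -0.24, and neither passed (limma's adjusted p 0.0527 and 0.214).

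Rod phototransduction genes were measured for 9 of 12, of which 2 rose, 1 fell and 6 did not pass in control eyes, with a median of 0.14. Thus 33.3% of the 9 were called, beside 2.06% of all probe sets. PDE6B, a rod phosphodiesterase subunit, rose by 1.11 (limma's adjusted p 0.000182) and PDE6G, its inhibitory subunit, by 0.39 (limma's adjusted p 0.0364), although a dimmer probe set of PDE6G fell by 0.32 (limma's adjusted p 0.0161). CNGB1, a subunit of the rod channel, fell by 1.03 (limma's adjusted p 0.00114). It ran between 8.73 and 9.61 with a median of 9.30 in control eyes at 3 days, and between 8.81 and 11.02 with a median of 10.28 at 6 hours. All these calls are of the average over sets. In control eyes of -15 D birds alone, 2 of the 9 rod genes rose and 1 fell, where 1.42% of all probe sets were called. Without the 3 birds whose eyes correlated least, 0 were called there. In control eyes of +15 D birds 0 of the 9 were called, where 0.367% of all probe sets were.

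**Figure D3:**
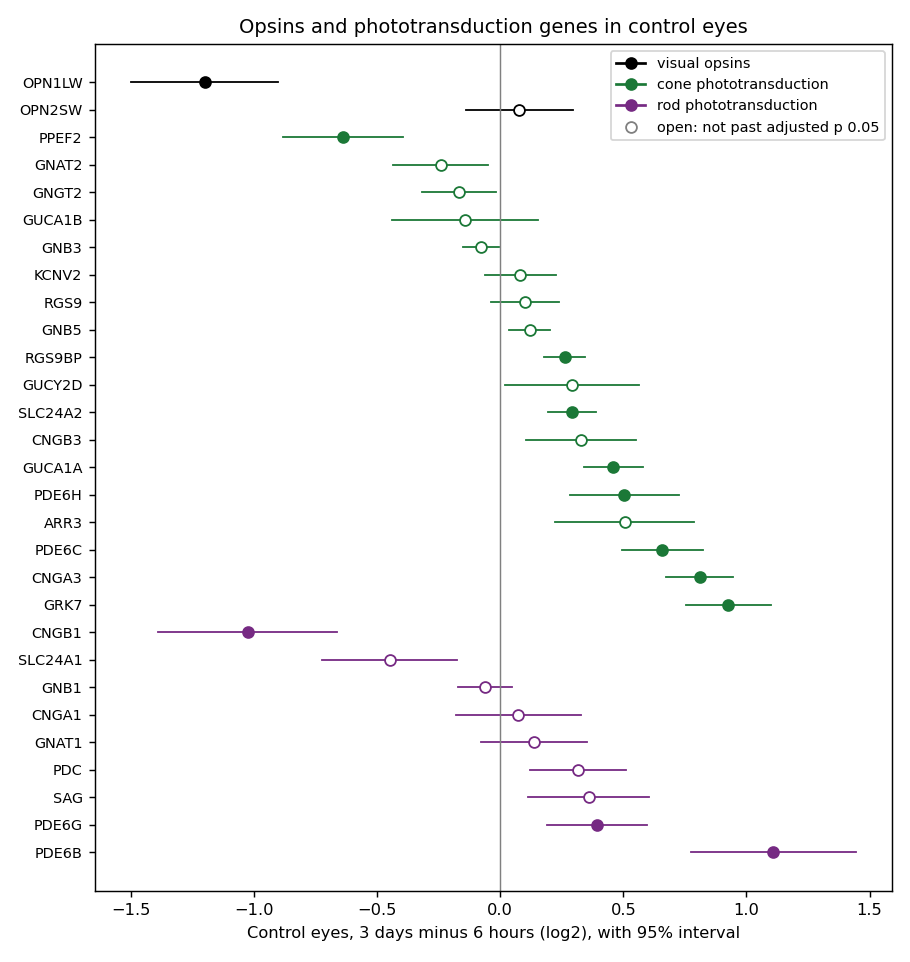
Log2 difference between control eyes at 3 days and at 6 hours, averaged over both bird sets, for the opsins, 18 cone and 9 rod phototransduction genes, with 95% intervals, and filled points for limma's adjusted p under 0.05. OPN1LW lies at -1.20 and OPN2SW at 0.078, 7 cone genes are called to the right of 0 and PPEF2 to the left, and among rod genes CNGB1 lies at -1.03 and PDE6B at 1.11.

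Of 19 measured photoreceptor transcription factors, 3 rose, 2 fell and 14 did not pass in control eyes. NR2E3, which in mammals represses cone genes in rods, rose by 0.65 (limma's adjusted p 1.83e-05), with 8.39 to 9.01 at 3 days against 7.70 to 8.49 at 6 hours. SAMD7 rose by 0.37 and NEUROD4 by 0.33, both close to the threshold with limma's adjusted p at 0.0262 and 0.0455, and NEUROD4 averaged 4.31, under the background of 4.50. PRDM1, which in the mouse favours photoreceptor over bipolar fate, fell by 0.74 (limma's adjusted p 6.46e-06), and the orphan receptor ESRRB fell by 0.49 (limma's adjusted p 0.0224). The control eyes at 3 days had PRDM1 between 4.04 and 4.75 with a median of 4.515, close to the background, so the size of its fall is uncertain. Thyroid hormone and retinoid receptors and their enzymes, which in the mouse help to set which cone opsin is made, had 0 of 10 measured members called by limma and 0 with an unadjusted p under 0.05. Among all probe sets 2.06% were called and 14.1% had such a p, so with 10 genes these counts are not a result about the receptors.

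Among 25 measured genes of photoreceptor structure, TULP1, needed for transport to the outer segment, fell by 0.63 (limma's adjusted p 3.79e-06), with 10.59 to 11.09 in control eyes at 3 days and 11.19 to 11.98 at 6 hours, and PCDH15, a cadherin of photoreceptors and hair cells, rose by 0.55 (limma's adjusted p 0.0207). The other 23 did not pass. Of 20 measured visual cycle genes, which supply the chromophore, 1 was called: RBP4, the carrier of vitamin A, which rose by 0.18 (limma's adjusted p 0.000925). These are 8% of the structure genes and 5% of the visual cycle genes, beside 2.06% of all probe sets. With 25 and 20 genes, such counts are not a result about either list.

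In lens eyes, averaged over the sets, 9 of the 18 cone genes rose and 3 fell, beside 7.78% of all probe sets called, and with the actin covariate 7 of the 18 were called. Over all 27 probe sets of the cone genes in these eyes, 10 were called higher and 5 lower. CNGA3 rose by 0.79 and GRK7 by 0.83 there, PDE6C by 0.73, GUCA1A by 0.42 and RGS9BP by 0.27. Of the 3 that fell, PPEF2 was lower by 0.68. Each of these named genes had limma's adjusted p at or under 0.000433, and the other called cone genes, higher or lower, are not named here. Of the 9 rod genes 1 rose and 2 fell, where control eyes had 2 and 1: CNGB1 fell by 1.11 and PDE6B rose by 0.99 (limma's adjusted p 6.99e-07 and 0.000120). The third, the exchanger SLC24A1, fell by 0.44 (limma's adjusted p 0.0459), and PDE6G did not pass at 0.29. Transcription factors had 2 of 19 higher and 5 lower, where control eyes had 3 and 2, and structure genes had 4 of 25 higher and 1 lower, where control eyes had 1 of each. Differences between the eyes in these tallies were not tested. TULP1 fell by 0.57 and ESRRB by 0.64 and PCDH15 rose by 0.78 (limma's adjusted p 9.05e-06, 0.000336 and 0.000226). In the lens eyes of -15 D birds, where 8.85% of all probe sets were called, BCO2, a carotenoid-cleaving enzyme, was called too. Averaged over the sets, its difference was -0.43 (limma's adjusted p 0.00293).

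Clock genes, which turn over with the time of day, differed between the same groups. Of 19 measured clock genes, 7 were higher and 3 lower in control eyes at 3 days, or 52.6% of them beside 2.06% of all probe sets. PER3, a repressor of the clock, had 11.21, 11.68 and 11.89 as lowest, median and highest values in control eyes at 3 days, against 9.62, 10.02 and 10.54 at 6 hours, a rise of 1.51 (limma's adjusted p 1.98e-10). ARNTL, the activator also called BMAL1, had 8.46, 8.83 and 9.03 at 3 days, against 9.54, 10.15 and 10.40 at 6 hours, a fall of 1.29 (limma's adjusted p 5.10e-10). NFIL3, a repressor of clock output, fell by 1.12 and PER2 rose by 1.03 (limma's adjusted p 2.57e-06 and 0.0272). In lens eyes PER3 rose by 1.62 and ARNTL fell by 1.29. The part of the clock in the OPN1LW difference was not tested.

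The genes whose signal was most like that of OPN1LW over the 48 eyes, among 11777 genes above background, were CNGB1 with a Pearson correlation of 0.948, TULP1 with 0.936, ARNTL with 0.928, the kinase gene CLK3 with 0.925 and LOC770392 with 0.921. The step between the times enters these values: on deviations from the 8 group means they were 0.841 for CNGB1, 0.745 for TULP1, 0.589 for ARNTL, 0.652 for CLK3 and 0.625 for LOC770392. OPN2SW had 0.258 with OPN1LW over all eyes and 0.791 on deviations. Most like OPN2SW were USP43 with 0.887, PFKL with 0.874, ATN1 with 0.870, SPIRE2 with 0.869 and FKBP8 with 0.856, and on deviations these had 0.903, 0.862, 0.862, 0.882 and 0.838. None of these 5 was among the 5 most like OPN1LW. These are descriptions over arrays that share birds and RNA quality, with no test.

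The lens itself was not shown to move either pigment. Within -15 D birds at 3 days, OPN1LW in the lens eye minus the control eye ran between -0.20 and 0.49 over 6 birds and was above 0 in 4. Its mean was 0.19 (95% interval -0.039 to 0.42), and limma with the bird as a block gave an adjusted p of 0.465, in a comparison that called 0.0703% of probe sets. Within -15 D birds at 6 hours it ran between -0.15 and 0.34, was above 0 in 5 of 6 birds and averaged 0.13 (95% interval -0.096 to 0.36, limma's adjusted p 0.738, 0.0391% called).

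Within +15 D birds at 3 days the OPN1LW difference between lens and control eye ran between -0.18 and 0.53, was above 0 in 4 of 6 birds and averaged 0.12 (95% interval -0.10 to 0.35, limma's adjusted p 0.99998, 0.00521% called). Within +15 D birds at 6 hours it ran between -0.14 and 0.95, was above 0 in 4 of 6 birds and averaged 0.22 (95% interval -0.0081 to 0.45, limma's adjusted p 0.662, 0.00782% called). The bird at 0.95 was replicate 1, whose control eye stood at 11.75 and whose lens eye had 12.71. Without the 2 birds with the lowest control eyes, the mean was 0.072 at 6 hours and 0.041 at 3 days. Exact sign-flip tests over 6 birds gave p between 0.156 and 0.3125 in the 4 conditions, and 0.03125 is the smallest they allow. OPN1LW minus the mean of the cone phototransduction genes in the same eye was a quantity chosen after the values were seen. After 6 hours of the -15 D lens it was above the control eye in 6 of 6 birds, by 0.0051 to 0.37. Its mean difference there was 0.17 (exact sign-flip p 0.03125, 0.0769 after adjustment over 32 tests). Over all conditions it was above the control eye in 19 of 24 birds. None of the 4 conditions passed for this quantity after adjustment. OPN1LW minus OPN2SW, also chosen after the values were seen, did not show this. After 6 hours of the -15 D lens it was above the control eye in 2 of 6 birds, by 0.010 on average (exact sign-flip p 0.969). Over all conditions it was above the control eye in 13 of 24 birds, and no condition passed.

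Averaged over the 4 conditions, a contrast chosen after the values were seen, OPN1LW was 0.17 above the control eye (95% interval 0.052 to 0.28), and above it in 17 of 24 birds. The unadjusted p of 0.00615 became 0.181 after adjustment over all probe sets, of which 0.373% were called, so the difference did not pass. It was also small beside the time difference of -1.20, and without the 2 birds named above it was 0.11 with limma's adjusted p at 0.259.

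OPN2SW in the lens eye minus the control eye averaged 0.037 in -15 D birds at 3 days, where 2 of 6 birds were above 0, and 0.12 in -15 D birds at 6 hours, where 5 of 6 were. In +15 D birds it averaged 0.049 at 3 days and 0.13 at 6 hours, with 4 of 6 birds above 0 at each time. At 6 hours single birds ran between -0.56 and 0.56 under the -15 D lens and between -0.42 and 0.62 under the +15 D lens, so its spread was several times its mean. No condition passed, with limma's adjusted p at 0.766 and above and exact sign-flip p at 0.1875 and above. The average over conditions was 0.084 (95% interval -0.033 to 0.20, limma's adjusted p 0.542, above 0 in 15 of 24 birds).

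Whether the lens effect differed between times or lens powers was tested on its own, and no such difference passed for either gene. For OPN1LW the lens effect at 3 days minus that at 6 hours was 0.057 for -15 D (95% interval -0.26 to 0.38, limma's adjusted p 0.940) and -0.097 for +15 D (95% interval -0.42 to 0.23). The effect of -15 D minus that of +15 D was 0.066 at 3 days and -0.088 at 6 hours (limma's adjusted p 0.936 and 0.988). For OPN2SW the same 4 differences lay between -0.084 and -0.0075. The intervals leave room for lens effects of the size of the spread between birds, so a p above the threshold does not show that lens and control eyes were alike.

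Among markers of tissue outside the retina, those of choroid and sclera had a higher median in lens eyes than in control eyes in each condition. The mean of 7 choroid and sclera genes, 6 of them above background, had a median of 7.70 in lens eyes against 6.43 in control eyes of -15 D birds at 3 days, and 7.20 against 6.43 at 6 hours. In +15 D birds it was 7.62 in lens eyes against 6.55 in control eyes at 3 days, and 7.34 against 6.60 at 6 hours. The mean of 9 striated muscle genes, 7 above background, reached 9.28 in a lens eye of -15 D birds at 3 days, against at most 5.84 in their control eyes. Their medians were 5.79 in lens eyes and 5.70 in control eyes. In that comparison 7 of the 9 had an unadjusted p under 0.05, beside 14.2% of all probe sets. In +15 D birds the muscle medians were 5.65 in lens eyes against 5.69 in control eyes at 3 days, and 5.89 against 5.82 at 6 hours. Blood genes, 6 of 6 above background, had medians between 6.97 and 7.44 in lens eyes and between 6.84 and 7.08 in control eyes. None of these genes was called by limma in a single condition, and their part in the opsin differences was not tested.

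**Figure D4:**
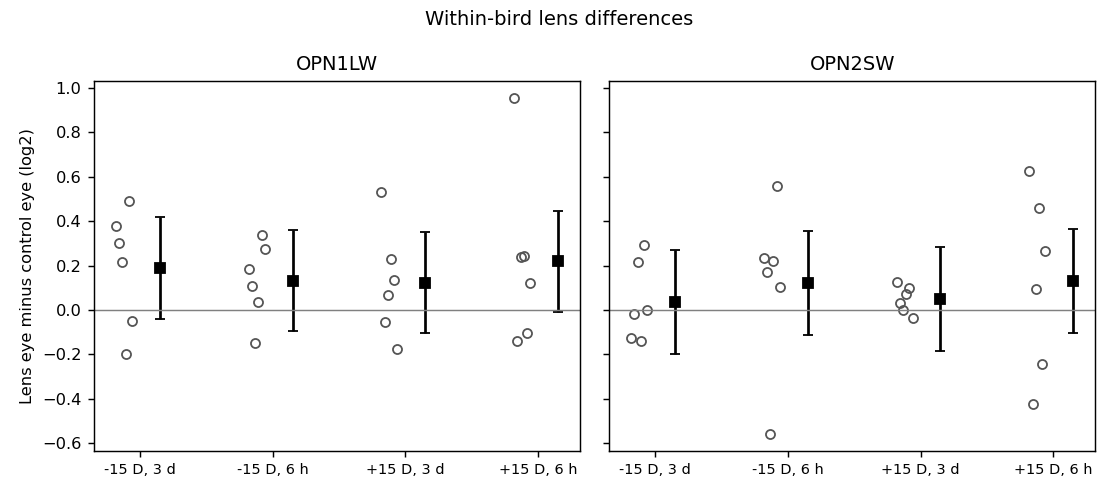
Log2 signal in the lens eye minus that in the control eye of the same bird, for OPN1LW (left) and OPN2SW (right), in the 4 conditions of 6 birds each. Open points are birds and squares with bars are limma's estimates with 95% intervals. All 8 intervals include 0, and for OPN1LW 1 bird under the +15 D lens for 6 hours stands at 0.95.

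On their brightest probe sets, other genes of the light pathway were not called in the single lens conditions either. Of the lists for cone and rod phototransduction, photoreceptor transcription factors, thyroid and retinoid receptors, visual cycle and photoreceptor structure, which hold 101 measured genes, 0 were called by limma on their brightest probe set in any of the 4 conditions. Among all 70 probe sets of the structure list, 1 that was not the brightest of its gene was called lower after 6 hours of the -15 D lens. At an unadjusted p under 0.05 there were 14 of 101 after 3 days of the -15 D lens, beside 14.2% of all probe sets, and 12 after 6 hours, beside 10.1%. Under the +15 D lens there were 1 after 3 days, beside 3.92%, and 9 after 6 hours, beside 7.51%. These counts are close to the shares over all probe sets, of which at most 0.0703% were called. In the average over conditions 1 was called, beside 0.373% of all probe sets, and 13 had an unadjusted p under 0.05, beside 13.5%. The called gene was DIO2, the enzyme that activates thyroid hormone, which was lower in lens eyes by 0.16 (limma's adjusted p 0.00187). Beyond the brightest probe sets, 1 probe set of the structure list was also called lower in this average.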

How the data were processed

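Retina with RPE of 24 chicks was measured on 48 Affymetrix Chicken arrays, from 100 ng of total RNA each, per the labels' protocols. The authors deposited 1 log2 signal for each probe set and array, made with RMA and Partek, per the submitters' processing notes. Their versions are not stated. RMA gives all arrays 1 distribution and compresses dim signals, so a shift of most genes would not be seen. Array medians lay between 6.382 and 6.505, and the number of arrays limits the precision.

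Of 38535 probe sets, 153 controls were left out. Probe sets of 1 symbol numbered 27168, of several symbols 177 and of none 11037. Symbols come from the platform annotation, and a probe set it does not list is unnamed here. limma 3.58.1 in R 4.3.3 was fitted to 24 control eyes, to 24 lens eyes, and to all 48 arrays with the bird as block (20 residual degrees of freedom each), without a signal filter, with Benjamini-Hochberg adjustment over 38382 probe sets and a threshold of 0.05. Single values were tested by exact two-sided permutation. Scripts were tested on simulated data. Bird numbers in the titles pair the eyes: their deviations from group means correlated above 0.1 in 20 of 24 birds (median 0.42, range -0.23 to 0.85).

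The opsins and the 15 gene lists were chosen with earlier results of these data known, and lists are described by counts alone. A gene is represented by its brightest probe set. Named from 6 photoreceptor lists were the members past the threshold in the averaged control-eye contrast, up to 30, and up to 10 in each other contrast, and for likeness the 5 genes best correlated over 48 arrays. Markers of other cells and clock genes are given beside. Alternatives covered the arrays in the fit, scaling, dim filters, array weights, an intensity trend, RNA integrity, birds left out, the block and the mean of both eyes.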

Additional observations from a re-analysis of the deposited data

Results flagged for a closer look

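Dixon's criterion for a single sample far from the others was applied to 36 groups of 6 values, and marked 2, where chance marks about 1 group in 20. In +15 D control eyes at 3 days, OPN1LW was 10.77 in replicate 1, while the other 5 eyes ran between 11.59 and 11.93, so the gap was 0.708 of the range against a critical value of 0.625. In +15 D birds at 6 hours, the OPN1LW difference between lens and control eye was 0.95 in replicate 1, while the other 5 birds ran between -0.14 and 0.24, a gap of 0.652 of the range. The control eye of that second bird also had the highest actin 3' to 5' ratio of its group, 4.41 log2. The eye flagged at 3 days had a ratio of 3.46 log2, below the highest of its group at 3.79. The part of RNA quality in these values was not tested for single eyes.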

How the results depend on the processing

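The OPN1LW time differences kept their direction in all 164 alternatives run, with values between -1.38 and -0.92, and kept their call in 163. The exception was the control eyes of +15 D birds with only the arrays compared, at -1.09 with an adjusted p of 0.215. Leaving out each bird in turn gave -1.27 to -0.92 there and -1.38 to -1.25 in -15 D control eyes, and all remained called. OPN2SW was called in 0 of 164 alternatives of the time differences, with values between -0.14 and 0.20, and the sign of so small a value is not read. The 22 lens effects, their differences and differences between bird sets, for both genes, were called in 0 of 522 alternatives by limma, the lowest adjusted p being 0.108. Replicate numbers of different times mark different birds. With them as a replicate block the averaged OPN1LW difference in control eyes was -1.20 (adjusted p 7.39e-07), and no call changed. Deviations of birds with the same number correlated above 0.1 in 1 of 6 numbers in -15 D and 3 of 6 in +15 D control eyes, and in 0 of 6 in -15 D and 4 of 6 in +15 D lens eyes. Counted separately, 4 of 6 correlated best with their own number in +15 D lens eyes, a hint from the data only. That count was 1 in each set of control eyes and 0 in -15 D lens eyes. Not every pair exceeded 0.1, and whether samples of 1 number share more than that number was not tested. Without the block of the bird, the OPN1LW lens effect after 6 hours of +15 D was 0.22 with an adjusted p of 0.9999, and no call changed. Counts over all probe sets moved far more. Control eyes averaged over sets had 791 called, against 482 without the 3 birds whose eyes correlated least and 2301 with array weights. Lens eyes had 2988 averaged, against 356 with the actin covariate and 6960 with array weights, and 3396 in -15 D birds, against 182 and 8536. In -15 D control eyes 546 became 180 to 4193, in +15 D control eyes 141 became 49 to 458, and in +15 D lens eyes 183 became 67 to 786. For lens minus control eye after 3 days of -15 D, 27 became 0 without the block and 2284 with array weights, after 6 hours 15 became 0 to 296, and averaged over conditions 143 became 15 to 715.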
